A study of Rattus norvegicus with 75 samples.

Results

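The genes described here carry the names of subunits of the mitochondrial respiratory chain and ATP synthase, and they were chosen by name alone: the Nduf subunits of complex I, Sdha to Sdhd of complex II, the Uqcr genes and Cyc1 of complex III, Cox4 to Cox8 of complex IV, the Atp5 genes of complex V, and the mitochondrially encoded Nd, Co, Cyb and Atp genes. Of the 32754 genes of the table, 103 rows carried such a name, and the 91 with a mean of at least 1 TPM over all 75 libraries were kept. TPM is the share of a library's transcripts that a gene holds after division by transcript length, scaled to the same total in every library. Of the 91 genes, 78 are nuclear (35 of complex I, 4 of complex II, 10 of complex III, 13 of complex IV and 16 of complex V) and 13 lie on the mitochondrial genome (7, 0, 1, 3 and 2). Atp5s, whose RefSeq symbol is Dmac2l, and Atp5sl are counted with complex V through their names, without a check that they are subunits.

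RNA was sequenced from kidney tubules that were microdissected from rats (Sprague-Dawley, male, weighing 120 to 160 g) fed either plain chow or chow with lithium chloride at 40 mM per kg of food. The cortical collecting duct (CCD) gave 3 control libraries after each of 12, 24 and 36 h, against 2 with lithium after 12 h and 3 each after 24 and 36 h, and after 72 h it gave 17 controls and 19 with lithium. For the cortical thick ascending limb (cTAL), only the 72 h time was used, with 12 controls and 10 with lithium. The study set out to find early signalling behind the loss of urine concentration that lithium brings about, a nephrogenic form of diabetes insipidus. No genotype is labelled, nor is it labelled which rat each library was made from.

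Complexes I to IV pass electrons from NADH and succinate to oxygen, complexes I, III and IV pump protons, and complex V makes ATP from the proton gradient. Each of complexes I, III, IV and V is assembled from subunits of both genomes, whose transcripts are made in different compartments by different polymerases, while complex II is wholly nuclear. The thick ascending limb, which reabsorbs salt by active transport, is among the nephron segments richest in mitochondria, and in the collecting duct mitochondria are densest in the acid-base handling intercalated cells.

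Between 10888 and 12411 genes per library reached 1 TPM. Summed principal cell markers were at 9237 to 21924 TPM in CCD and 68.0 to 174 TPM in cTAL, and thick ascending limb markers at 53196 TPM or more in cTAL and at most 2023 TPM in CCD. Within the large groups, 6 genes outside the respiratory chain split the libraries into blocks of consecutive replicate numbers, 22 such sets over the 10 groups, and each group before 72 h was 1 set. In CCD at 72 h the control sets held libraries 1 to 4, 5 to 8, 9 to 12 and 13 to 17, and the lithium sets libraries 1 to 6, 7 to 11, 12 to 15 and 16 to 19. Whether a set is 1 rat or 1 preparation is not given, so p-values rest only on how libraries vary, which may be technical variation, and they are followed where needed by the result on set means. In whole tubules, fewer cells of a type and less RNA per cell cannot be told apart.

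Per transcript length, the highest level was that of a mitochondrially encoded gene. Mt-atp6, a subunit of the proton channel of complex V, had the highest mean over the 75 libraries at 29386 TPM. The lowest mitochondrial mean was 163 TPM for Mt-nd4, a proton-pumping subunit of complex I whose reading frame overlaps that of Mt-nd4l. Whether reads are split between Mt-nd4 and Mt-nd4l was not tested. The nuclear genes were led by Atp5b, the catalytic beta subunit of ATP synthase, at 5901 TPM. Just inside the threshold stood Ndufa13 at 1.68 TPM, Cox6b2 at 4.77 and the pseudogene row Ndufv3-ps1 at 5.79. Just outside stood Cox4i2 at 0.860 TPM and Ndufa4l2 at 0.332. Of the 12 rows left out, 5 were listed at 0 in every library: both Ndufa1 rows, Cox7a1, Cox8c and Atp5f1. Cox6b1 and Uqcrb each have 2 rows under 1 symbol, which may share reads, and they are given by identifier. Libraries were made without strand information, so antisense reads cannot be told apart.

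Promoter windows from RefSeq (build GRCr8, from 250 bases before to 50 after each start; the expression values use another build, Rnor_6.0) were matched by symbol or unique synonym for 65 of the 78 nuclear genes. The letters of 3 motifs known from respiratory chain promoters were searched on both strands: GCATGCGC (the core of the site of nuclear respiratory factor 1, NRF1), CCGGAAGT (an ETS site of the kind bound by GABP, also called NRF2) and AAGATGGC (the core of a YY1 site). The first was in 8 of the 65 windows, or 12.3%, and in 2.47% of all 33469 windows. The second was in 8 windows, or 12.3%, against 3.81% of all. The third was in 14 windows, or 21.5%, against 3.17% of all. A window can hold several of them, and 25 of the 65 held at least 1. Shown are the gene with the largest change at 72 h, which holds none of the 3 motifs, a complex III and a complex V gene among those that rose most, and Uqcrc1, which had the largest fall among the genes called at 12 h. Capitals mark the motif letters on either strand: the ETS letters in Uqcrq, the NRF1 letters on both strands (overlapping) and the YY1 letters in Atp5i, and the NRF1 and YY1 letters in Uqcrc1. The windows are chr1:78122621-78122920, + strand, chr10:38089929-38090228, - strand, chr14:1464610-1464909, + strand, and chr8:118467973-118468272, + strand.
Cox6b2: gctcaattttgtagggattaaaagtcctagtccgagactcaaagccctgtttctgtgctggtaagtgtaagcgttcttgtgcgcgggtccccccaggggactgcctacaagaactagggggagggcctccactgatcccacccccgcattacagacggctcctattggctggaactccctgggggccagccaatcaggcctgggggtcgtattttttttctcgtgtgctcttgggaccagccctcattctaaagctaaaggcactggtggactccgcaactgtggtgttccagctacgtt
Uqcrq: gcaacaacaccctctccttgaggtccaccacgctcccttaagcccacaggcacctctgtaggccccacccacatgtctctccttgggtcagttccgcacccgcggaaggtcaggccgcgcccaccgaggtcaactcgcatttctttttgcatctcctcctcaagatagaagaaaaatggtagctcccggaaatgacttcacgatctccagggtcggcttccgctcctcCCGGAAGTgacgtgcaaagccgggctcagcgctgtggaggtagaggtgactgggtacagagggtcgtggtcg
Atp5i: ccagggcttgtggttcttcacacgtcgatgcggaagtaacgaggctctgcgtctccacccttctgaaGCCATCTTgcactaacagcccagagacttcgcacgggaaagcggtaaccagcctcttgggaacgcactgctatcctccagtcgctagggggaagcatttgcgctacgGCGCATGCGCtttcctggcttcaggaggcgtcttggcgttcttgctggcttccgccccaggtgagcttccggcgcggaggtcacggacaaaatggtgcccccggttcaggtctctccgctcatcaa
Uqcrc1: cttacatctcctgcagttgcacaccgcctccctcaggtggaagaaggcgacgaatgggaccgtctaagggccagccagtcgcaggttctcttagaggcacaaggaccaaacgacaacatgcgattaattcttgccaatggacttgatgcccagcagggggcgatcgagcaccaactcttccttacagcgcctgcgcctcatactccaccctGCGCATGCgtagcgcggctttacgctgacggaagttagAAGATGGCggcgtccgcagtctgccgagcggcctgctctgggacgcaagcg

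The balance between nuclear and mitochondrially encoded transcripts of the chain differed between the groups in the CCD. In control CCD at 72 h the 78 nuclear genes summed to 7.00 to 10.6% of all TPM with a median of 8.22%, and with lithium to 7.47 to 11.2% with a median of 9.65%. The 13 mitochondrial genes summed to 7.23 to 12.9% with a median of 10.2% in controls and to 4.77 to 10.5% with a median of 9.03% with lithium. So the ratio of the nuclear to the mitochondrial sum was 0.589 to 1.10 (median 0.832) in the 17 controls and 0.937 to 2.02 (median 1.06) in the 19 lithium libraries. The groups overlapped in both sums and in the ratio, and 7 of 19 lithium libraries lay above all controls in the ratio. By set, the mean ratio was 0.725 to 0.966 in the 4 control sets and 1.04 to 1.32 in the 4 lithium sets, which did not overlap. One lithium library, number 18, had the lowest mitochondrial share of all and the ratio of 2.02. It lies in the set of libraries 16 to 19, whose mean ratio was 1.23. Libraries 16, 17 and 19 were at 0.937, 0.990 and 0.988, within the range of the control libraries, so the place of that set above the control sets rests on library 18.

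At 24 h the mitochondrial share was 9.96, 11.8 and 10.5% in the 3 control libraries and 7.36, 7.56 and 7.22% in the 3 lithium libraries. At 36 h it was 9.36, 8.48 and 11.1% in controls and 8.07, 7.74 and 8.11% with lithium. The groups did not overlap at either time, nor did the ratio, while the nuclear share overlapped at both (24 h means of 7.67 and 7.32%, 36 h means of 7.75 and 7.86%). At 12 h both sums overlapped, with mitochondrial means of 10.4% in controls and 9.32% with lithium. In cTAL the mitochondrial share was higher than in CCD, at 12.0 to 17.9% (median 14.9%) in controls and 13.3 to 17.4% (median 15.6%) with lithium, and the 2 groups overlapped in every sum. These sums describe the libraries and carry no test, and the tests that follow are for single genes.

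**Figure D1:**
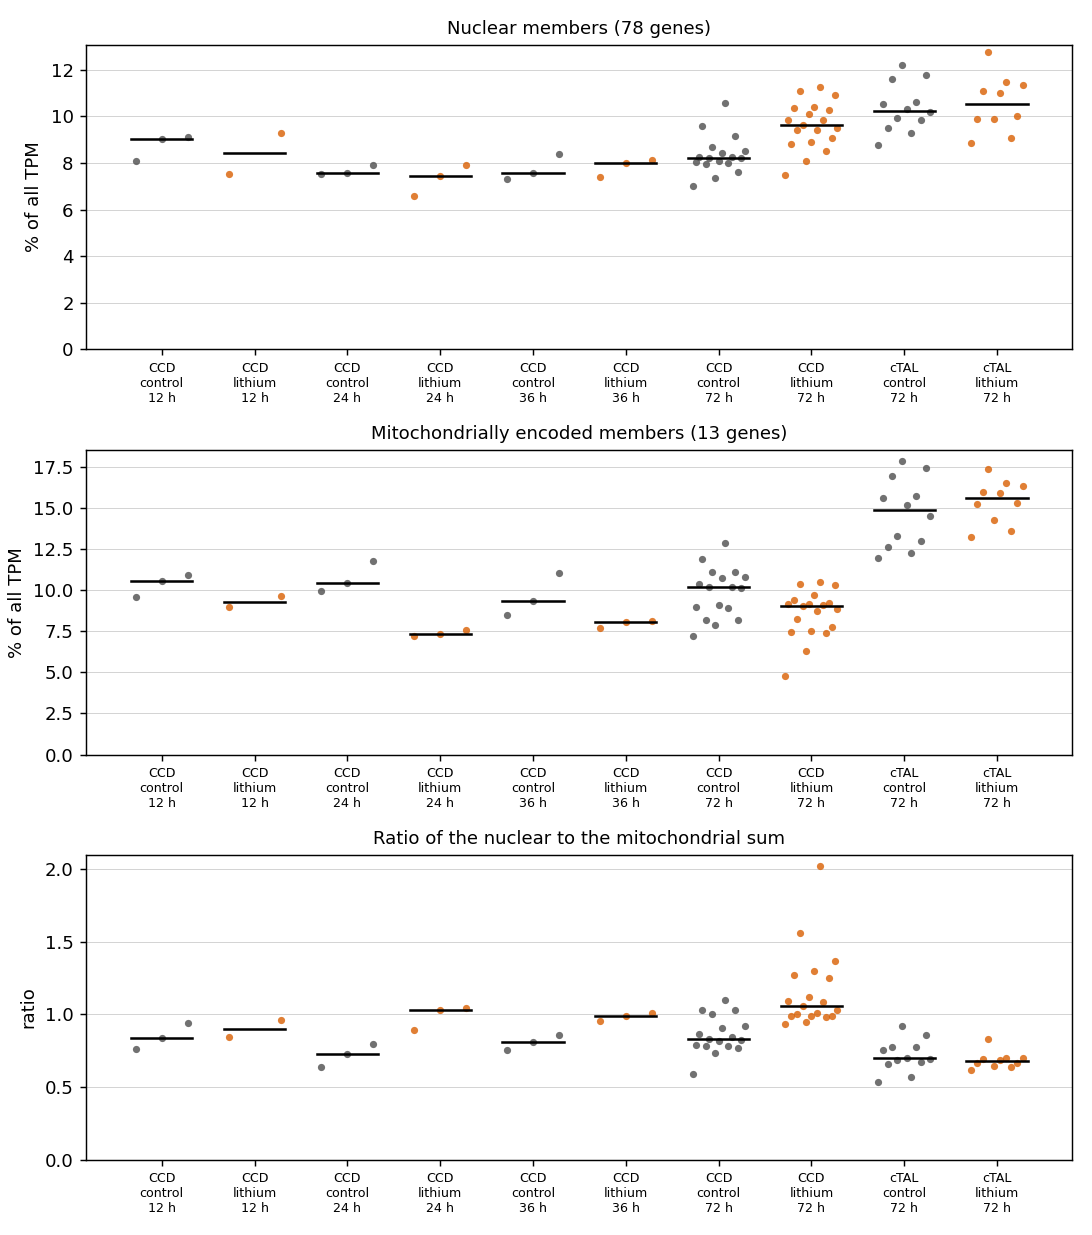
Summed TPM of the 78 nuclear and the 13 mitochondrially encoded genes as a percent of all TPM (top and middle) and the ratio of the 2 sums (bottom), 1 point per library, controls in grey and lithium in orange, with a line at the group median. The ratio has a median of 0.832 in control and 1.06 in lithium CCD at 72 h, while both cTAL groups lie lower, with medians of 0.698 and 0.677.

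Genes were tested with limma on log2(TPM + 1), with Benjamini-Hochberg (BH) adjustment over all genes tested, and those with an adjusted p under 0.05 are spoken of as called. In CCD at 72 h, nuclear subunit transcripts were higher with lithium across complexes I, III, IV and V, while mitochondrially encoded ones were lower. Of the 78 nuclear genes, 52 rose and 2 fell, and of the 13 mitochondrial genes none rose and 6 fell. Over all 11644 genes tested, 37.3% were called, 22.0% higher and 15.2% lower. The median log2 difference was 0.22 over the nuclear genes, -0.26 over the mitochondrial genes and 0.00 over all genes. By complex, 21 of 35 nuclear genes of complex I rose and 1 fell, 1 of 4 of complex II rose and 1 fell, and 7 of 10 of complex III, 12 of 13 of complex IV and 11 of 16 of complex V rose with none falling. With the libraries scaled by median of ratios, 21 nuclear genes rose and 4 fell and 2 mitochondrial genes fell, with medians of 0.20 and -0.28. That scaling called 27 of the 91 genes beside 40.6% of all 11608 genes tested, so their share was no longer above that of all genes. On means of the library sets 12 of the 60 calls were made: Cox6b2, Ndufa12, Uqcrq, Ndufc1, Cox6a1, Ndufa11, Ndufb7, Ndufb6, Atp5g1, Cyc1 and Atp5d, all higher, and Ndufv3, lower. These 12 of 91 genes stand beside 12.5% of all 14105 genes called on set means, a similar share.

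Read against the promoter windows, the median difference at 72 h was 0.25 over the 8 genes with the NRF1 letters (7 higher, 0 lower), 0.22 over the 8 with the ETS letters (4 higher, 0 lower), 0.22 over the 14 with the YY1 letters (10 higher, 0 lower) and 0.21 over the 40 with none (27 higher, 2 lower). The 4 medians lay close together.

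**Figure D2:**
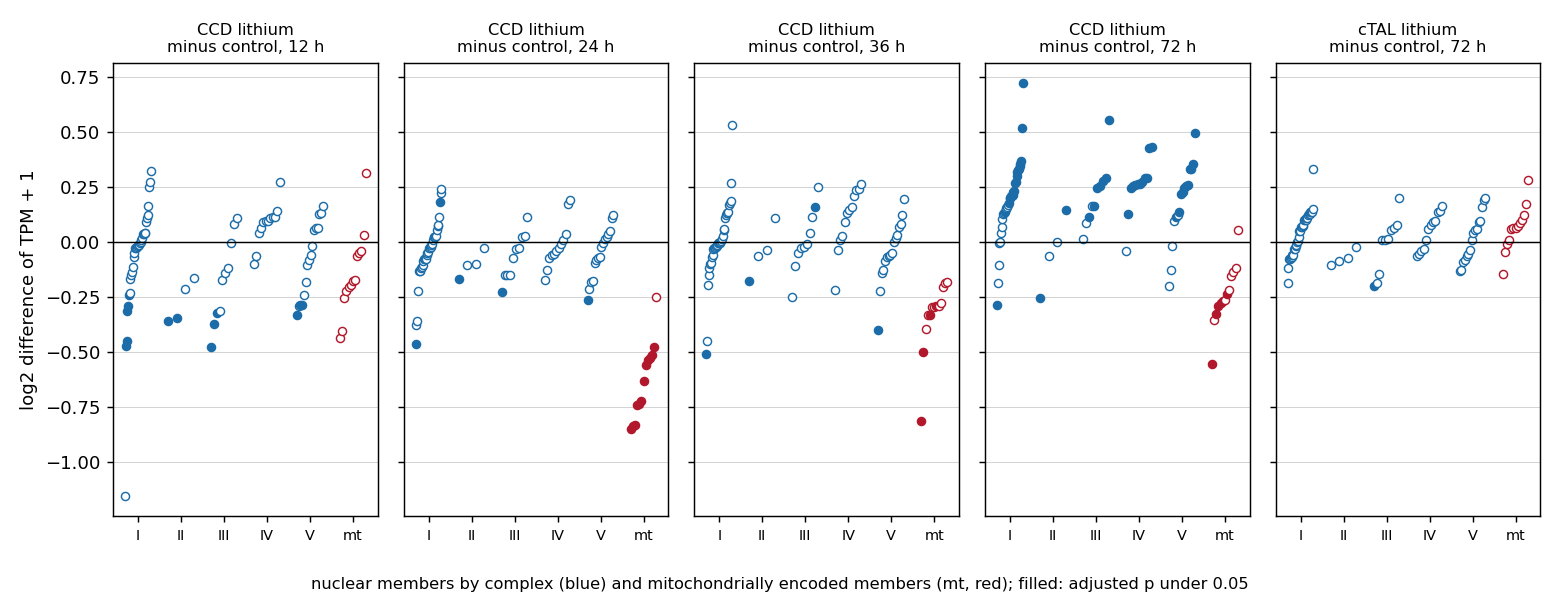
Log2 difference of TPM + 1, lithium minus control, for every gene by complex in the 5 lithium comparisons. Nuclear genes are blue and mitochondrially encoded genes red, and filled points passed an adjusted p of 0.05. Cox6b2 and Ndufs5 are left out because they lie beyond the axis in some panels, and are plotted by library. The red points lie lowest at 24 h (median -0.63), and most blue points of complexes I, III, IV and V lie above 0 in CCD at 72 h.

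In complex I, the largest rise at 72 h was in Ndufa12, an accessory subunit of its peripheral arm. It was at 54.8 to 140.0 TPM with a median of 89.0 in controls and at 88.5 to 209 TPM with a median of 145 with lithium (log2 difference 0.72, SE 0.106, adjusted p 5.79e-07, limma with BH), and 13 of 19 lithium libraries lay above all controls. Ndufc1, a small membrane-arm subunit, was at 196 to 471 TPM with a median of 263 in controls and at 262 to 465.8 TPM with a median of 389 with lithium (log2 difference 0.52, SE 0.0864, adjusted p 5.77e-06, limma with BH). The groups overlapped, since 1 control library lay above all lithium libraries. Ndufs1 (log2 difference -0.10, SE 0.0682) and Ndufv1 (0.10, SE 0.0467), core subunits that hold iron-sulfur clusters and, in Ndufv1, the flavin, did not pass the test. Other core subunits rose, among them Ndufv2 (0.23), Ndufs3 (0.21) and Ndufs8 (0.17). Ndufv3, an accessory subunit next to Ndufv1, went the other way. It was at 217 to 365 TPM with a median of 269 in controls and 162 to 283 TPM with a median of 225 with lithium (log2 difference -0.29, SE 0.0649, adjusted p 0.000435, limma with BH), with 7 of 19 lithium libraries below all controls.

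Complex II was the exception among the nuclear complexes, with a median difference of -0.03. Sdha, its flavoprotein, fell from 816 ± 93.7 TPM (SD, n = 17) to 684 ± 95.3 (SD, n = 19; log2 difference -0.26, SE 0.0620, adjusted p 0.000991, limma with BH), and the groups overlapped. Sdhb, its iron-sulfur subunit, rose by a log2 of 0.14 (SE 0.0416, adjusted p 0.00513, limma with BH). Sdhc and Sdhd, the membrane anchors, did not pass the test (log2 differences -0.06 and 0.00).

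In complex III, Cyc1, the cytochrome c1 heme subunit, was at 1088 to 1298 TPM with a median of 1208 in controls and at 1248 to 1867 TPM with a median of 1445 with lithium (log2 difference 0.29, SE 0.0417, adjusted p 3.03e-07, limma with BH). The groups were nearly separate: 18 of 19 lithium libraries lay above all controls. Uqcrq, a small subunit beside cytochrome b, was at 164 to 449.9 TPM with a median of 218 in controls and 233 to 419.6 TPM with a median of 342 with lithium (log2 difference 0.55, SE 0.0985, adjusted p 1.57e-05, limma with BH), and 1 control library lay above every lithium library. The core protein Uqcrc1 and the Rieske iron-sulfur protein Uqcrfs1 rose less, by log2 values of 0.16 and 0.11 (SE 0.0509 and 0.0367, adjusted p 0.0108 and 0.0143, limma with BH). Uqcrc2, the other core protein, did not pass (0.09).

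In complex IV every nuclear gene but Cox8a rose. Cox6a1, the widely expressed form of subunit 6a, rose from 2961 ± 524 TPM (SD, n = 17) to 3969 ± 554 (SD, n = 19; log2 difference 0.43, SE 0.0741, adjusted p 1.02e-05, limma with BH). The rows of Cox6b1, the somatic form of subunit 6b, rose by 0.43 (ENSRNOG00000024309) and 0.25 (ENSRNOG00000034161). Cox4i1 and Cox5a, which are built into the enzyme early, rose by 0.27 and 0.26 (SE 0.0734 and 0.0503). Cox8a was at 5714 ± 623 and 5604 ± 924 TPM (log2 difference -0.04, SE 0.0704, adjusted p 0.697, limma with BH). Cox7a2l, which takes part in joining complexes into supercomplexes, rose by 0.13, and Ndufa4, which is counted by name with complex I but binds complex IV, by 0.27. Apart from Cox6b2, all of these groups overlapped.

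In complex V, several genes of the membrane part and the stalk rose, while the alpha and beta subunits did not pass the test. Atp5i, the e subunit of the membrane part, was at 1346 to 3438 TPM with a median of 1656 in controls and 1363 to 3184 TPM with a median of 2464 with lithium (log2 difference 0.49, SE 0.0992, adjusted p 0.000102, limma with BH), with overlap. Of the 3 genes for the proton-carrying c subunit, which encode 1 mature protein, Atp5g1 rose by 0.33 (SE 0.0621, 13 of 19 lithium libraries above all controls) and Atp5g3 by 0.23 (SE 0.0525, 10 of 19), and Atp5g2 did not pass (0.12, SE 0.0633). The alpha and beta subunits Atp5a1 (0.10, SE 0.0412) and Atp5b (-0.02, SE 0.0367) did not pass either.

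The mitochondrially encoded genes that fell at 72 h belonged to complexes I, IV and V. Mt-nd4 was at 90.3 to 206 TPM with a median of 145 in controls and 34.0 to 161 TPM with a median of 95.1 with lithium (log2 difference -0.55, SE 0.147, adjusted p 0.00259, limma with BH), and 6 of 19 lithium libraries lay below all controls. The set of lithium libraries 16 to 19 was at 34.0 to 79.7 TPM and that of 12 to 15 at 59.8 to 94.8 TPM. The other falls were in Mt-nd5 (-0.33), Mt-nd4l (-0.29), Mt-nd2 (-0.28), Mt-atp6 (-0.27) and Mt-co2 (-0.24), with SE between 0.0842 and 0.116 and adjusted p between 0.0134 and 0.0342 (limma with BH). Mt-atp6 was at 19410.4 to 33189 TPM with a median of 27108 in controls and 12519 to 28537 TPM with a median of 23589 with lithium. The genes that did not pass were Mt-nd6 (-0.35), Mt-atp8 (-0.26), Mt-co1 (-0.22), Mt-cyb (-0.16), Mt-nd1 (-0.14), Mt-cox3 (-0.12) and Mt-nd3 (0.05). No mitochondrial gene was called on set means. Without library 18, 6 still fell, and without libraries 16 to 19, 4 fell, with Mt-co2 and Mt-nd4l no longer called (both settings chosen after the values were seen). Beside these falls, the 12 intercalated cell markers summed to 9792 to 15011 TPM (median 13871) in controls and 8380 to 10950 TPM (median 9421) with lithium, with none of the 12 near 0. The 10 principal cell markers summed to 11875 to 19089.7 TPM (median 15745) in controls and 9643 to 13807 TPM (median 10761) with lithium, also with none near 0. The part of either list in the results at 72 h was not tested.

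At 24 h of lithium the mitochondrially encoded genes fell together, while few nuclear ones were called. Of the 13 mitochondrial genes 12 fell, and of the 78 nuclear genes 2 rose and 4 fell, while 23.6% of the 12998 genes tested were called, 18.3% higher and 5.30% lower. The medians were -0.63 for mitochondrial genes, -0.04 for nuclear genes and 0.13 for all genes. In all 13 mitochondrial genes the 3 lithium libraries lay below the 3 controls, as they did in 9.98% of all genes tested. Scaling by median of ratios took the median of all genes to -0.01 and those of the mitochondrial and nuclear genes to -0.80 and -0.20, with 12 mitochondrial genes falling in either case. Under it 10 nuclear genes fell and 0 rose, with 23.3% of all genes called. Scaling by genes that are not mitochondrial gave 7 nuclear falls and 0 rises, with 21.4% of all genes called. In a joint fit of all 10 groups, which shares 1 estimate of the spread, 3 mitochondrial genes and 1 nuclear gene fell and none rose, beside 6.03% of all genes called.

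Mt-nd1, a membrane subunit of complex I, was at 5426, 6703 and 5816 TPM in controls and 3726, 3455 and 3515 with lithium (log2 difference -0.74, SE 0.0916, adjusted p 1.96e-05, limma with BH). Mt-nd2, its neighbour, was at 3360.3, 4279 and 3522 TPM in controls and 2299.7, 2229 and 2200.3 with lithium (log2 difference -0.72, SE 0.101, adjusted p 6.77e-05, limma with BH). Both pairs of groups were far apart relative to their spread. The other complex I genes fell by log2 values of -0.63 (Mt-nd5) to -0.85 (Mt-nd3), with Mt-nd4 at -0.84, Mt-nd4l at -0.83 and Mt-nd6 at -0.74. Outside complex I the falls were smaller: -0.48 for Mt-cyb, the cytochrome b of complex III, -0.56 and -0.51 for Mt-co2 and Mt-cox3 of complex IV, and -0.54 and -0.53 for Mt-atp6 and Mt-atp8 of complex V. Mt-co1, the catalytic subunit of complex IV, did not pass (log2 difference -0.25, SE 0.160, adjusted p 0.289, limma with BH), though its 3 lithium values (5604, 4495 and 5277 TPM) lay below its controls (5643, 6480.1 and 6122). Whether the falls differ between complexes was not tested. Each group is 1 set, so lithium and set cannot be told apart at this time. All 15 proximal tubule markers, from a segment rich in mitochondria, summed to 918 to 2789 TPM in the 24 h controls and 246 to 380 TPM with lithium, with none near 0 in either group. The 12 intercalated cell markers summed to 14052 to 15465 TPM in those controls and 10729 to 11489.7 TPM with lithium, also with none near 0. The sums of the other marker lists overlapped between the 24 h groups, and the part of these cells in the result was not tested.

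Among nuclear genes at 24 h, Ndufa10 rose by 0.18 (SE 0.0607, adjusted p 0.0409, limma with BH), a call that was not made under either other scaling, in the joint fit or on set means, nor with any 1 library but control 3 left out. Those that fell were Ndufv3 (-0.46), Atp5b (-0.26), Uqcrc2 (-0.23) and Sdha (-0.17). Ndufv3 was at 259, 243 and 256 TPM in controls and 162, 198 and 191 with lithium, without overlap (SE 0.10, adjusted p 0.00315, limma with BH). The core subunits Ndufs1 (-0.22), Ndufv1 (-0.02), Sdhb (-0.11), Uqcrc1 (-0.15), Uqcrfs1 (-0.15), Cyc1 (0.02), Cox4i1 (-0.06), Cox5a (-0.07) and Atp5a1 (-0.07) did not pass the test. With 1 library left out at a time, the call of Sdha was lost in 5 of 6 fits and that of Uqcrc2 in 4.

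At 36 h, 4 mitochondrial genes fell and none rose, and 3 nuclear genes rose and 3 fell. Of the 12998 genes tested 32.2% were called, 23.7% higher and 8.50% lower. The medians were -0.30 for mitochondrial, 0.00 for nuclear and 0.13 for all genes, and under median-of-ratios scaling -0.45, -0.15 and -0.01, with 8 mitochondrial and 12 nuclear genes lower and 2 nuclear genes higher. That scaling called 31.9% of all genes tested. Mt-nd4 was at 193, 178 and 179.9 TPM in controls and 115, 113 and 87.1 with lithium (log2 difference -0.81, SE 0.159, adjusted p 0.000947, limma with BH). Mt-nd6 (-0.50), Mt-nd1 (-0.33) and Mt-atp6 (-0.29) were the other falls, and of these 4 the groups overlapped only for Mt-nd6. The 9 others lay between -0.40 (Mt-nd4l) and -0.18 (Mt-cyb) and did not pass: Mt-nd5 (-0.33), Mt-atp8 (-0.30), Mt-nd3 (-0.29), Mt-co2 (-0.29), Mt-co1 (-0.28), Mt-nd2 (-0.21) and Mt-cox3 (-0.19) with them. Of all 13 mitochondrial genes, 6 were lower without overlap, beside 14.0% of all genes tested. The nuclear genes that rose were Ndufs5, Cox6b2 and Cyc1 (1209.8, 1147 and 1189 TPM in controls, 1319, 1330.0 and 1309.8 with lithium, log2 difference 0.16, SE 0.0562, adjusted p 0.0405, limma with BH). Those that fell were Ndufv3 (-0.51), Atp5sl (-0.40, counted with complex V by name only) and Sdhc (-0.18). The core subunits Ndufs1 (-0.20), Ndufv1 (-0.03), Sdha (-0.07), Sdhb (0.11), Uqcrc1 (-0.02), Uqcrfs1 (-0.05), Cox4i1 (0.03), Cox5a (0.09), Atp5a1 (-0.09) and Atp5b (0.00) did not pass. Leaving out 1 library at a time gave 6 to 14 calls in place of 10. The counts were 6 without control 1, control 3 or lithium 2. The call of Cyc1 was lost in all 6 of these fits, and under either other scaling, that of Sdhc in 5, and those of Mt-atp6 and Mt-nd6 in 4 each. In a joint fit of all 10 groups 2 nuclear genes rose, 1 fell and no mitochondrial gene was called, and on set means Ndufs5 alone was called. Of all genes, 10.3% were called in that joint fit and 4.62% on set means. At this time most summed markers differed without overlap: the 10 of principal cells were at 18273 to 21924 TPM in controls and 9237 to 10165 TPM with lithium, the 12 of intercalated cells at 11932 to 13218 and 10406 to 10877 TPM, and those of thick ascending limb (8 of 9 found, Tmem207 near 0) at 1536 to 2012 and 719.9 to 796 TPM. Endothelial markers (9 of 10 found) were at 146 to 265 and 62.8 to 111 TPM. Fibroblast and smooth muscle markers (9 of 10 found, with Col1a1, Lum, Pdgfra and Acta2 near 0 in both groups and Pdgfrb with lithium) were at 18.2 to 23.8 and 13.9 to 16.3 TPM. The 5 of distal convoluted and connecting tubule were at 100.4 to 169 TPM (Pvalb and Trpv5 near 0) and 337 to 412 TPM (Slc12a3 near 0). Proximal tubule and immune markers overlapped. The part of these cells in the 36 h results was not tested.

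**Figure D3:**
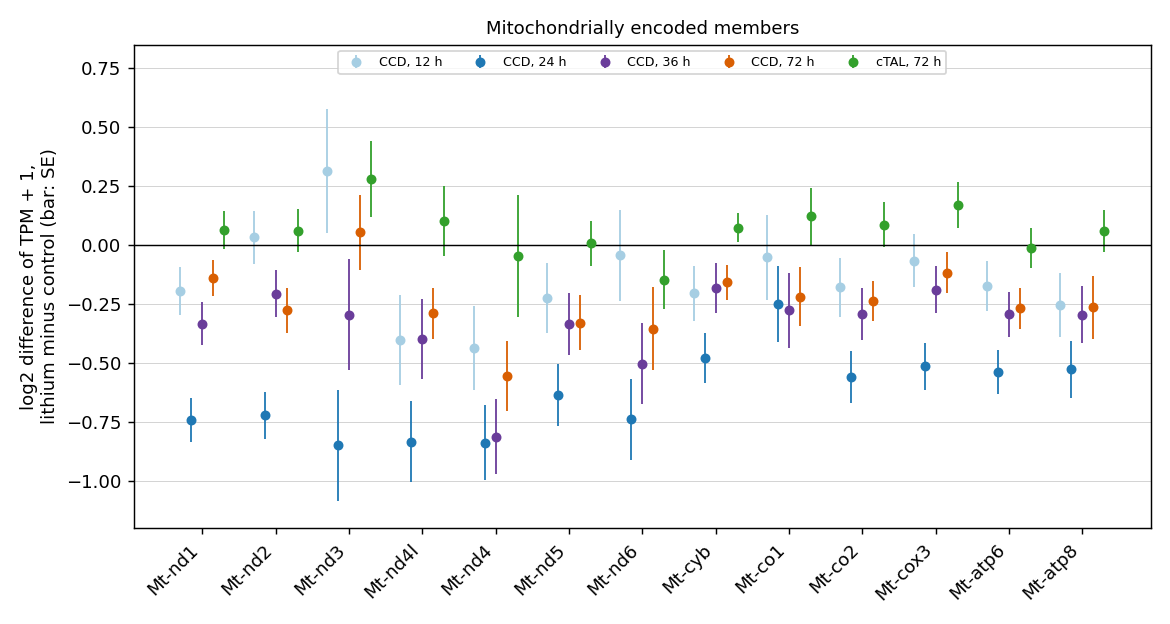
Log2 difference of TPM + 1, lithium minus control, of the 13 mitochondrially encoded genes in the 5 lithium comparisons, with bars of 1 SE. The 24 h values are the lowest for every gene but Mt-co1, which is lowest at 36 h, and the cTAL values lie between -0.15 and 0.28.

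At 12 h every call was nuclear: 13 nuclear genes fell, none rose, and no mitochondrial gene was called. Of the 12998 genes tested 10.4% were called, 7.10% higher and 3.30% lower. Among the genes that fell were Uqcrc1 (-0.48), Uqcrc2 (-0.37) and Uqcrfs1 (-0.33) of complex III, Ndufs1 (-0.48), Ndufv3 (-0.45), Ndufv1 (-0.31) and Ndufa10 (-0.24) of complex I, Sdha (-0.36) and Sdhc (-0.35) of complex II, and Atp5b (-0.33), Atp5a1 (-0.29) and Atp5c1 (-0.29) of complex V. No gene of complex IV was called (Cox4i1 0.11, Cox5a -0.10). The medians were -0.02 for nuclear, -0.18 for mitochondrial and 0.06 for all genes. At an unadjusted p under 0.05 stood 1 mitochondrial gene. From lowest to highest, the mitochondrial log2 differences at 12 h were Mt-nd4 (-0.44), Mt-nd4l (-0.40), Mt-atp8 (-0.26), Mt-nd5 (-0.22), Mt-cyb (-0.20), Mt-nd1 (-0.19), Mt-co2 (-0.18), Mt-atp6 (-0.17), Mt-cox3 (-0.07), Mt-co1 (-0.05), Mt-nd6 (-0.04), Mt-nd2 (0.03) and Mt-nd3 (0.31), none of them called. Uqcrc1 was at 1287, 1293 and 1246 TPM in controls and 969.6 and 864 with lithium (log2 difference -0.48, SE 0.0706, adjusted p 0.000332, limma with BH), without overlap. For Uqcrc1 these controls lay above every other CCD control library, and both lithium values lay within the range of the 72 h controls. Uqcrc1, Ndufv1, Atp5a1 and Ndufa10 also differed between the control times. Each 12 h group is 1 set, so lithium and set cannot be told apart. With 2 lithium libraries in 1 set, leaving out lithium library 2 left 7 calls. The joint fit of 10 groups made 4, beside 0.948% of all genes called, and none was made on set means, beside 0.0213%. Summed principal cell markers were at 18701 to 20691 TPM in the 12 h controls and 14407 to 16473 TPM with lithium, without overlap and with none near 0. Thick ascending limb markers (8 of 9 found, Slc12a1 and Tmem207 near 0 in both groups and Cldn10 with lithium) were at 1661 to 2023 and 579 to 1018 TPM. Immune markers (15 of 15) were at 189 to 408 TPM (Cd3e near 0) and 80.8 to 184 TPM (Ptprc and Itgb2 near 0), also without overlap, and the other lists overlapped. Their part in the result was not tested.

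Control levels of several of these genes differed by time in CCD. Across the 4 control times, 22 nuclear genes and 1 mitochondrial gene (Mt-nd4l) differed (limma's moderated F test with BH), beside 13.8% of the 14105 genes tested. Uqcrc1 was at 1246 to 1293 TPM in controls of 12 h, 993 to 1169.8 in those of 24 h, 967 to 985 in those of 36 h and 747 to 1035 in those of 72 h (adjusted p 0.000237, F test). For Uqcrc1 the 12 h controls lay above every other CCD control library. Ndufv1 went from 625.3 to 643 TPM at 12 h to 381 to 571 at 72 h, and Atp5a1 from 2279 to 2461 to 1534 to 2039.8 (both adjusted p 0.000359, limma F test with BH). Ndufa10, an accessory subunit of complex I, had an adjusted p of 0.00137 (limma F test with BH). Each early control group is 1 set, so time and set cannot be told apart, and no gene of the chain was called on set means.

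The lithium effect itself differed over the 4 times for 11 nuclear genes and no mitochondrial gene, beside 8.43% of all genes (limma's moderated F test with BH). Ndufs5 came first (adjusted p 2.21e-08). Uqcrfs1, Uqcrc1, Cyc1 and Atp5g3 followed (adjusted p 0.00169, 0.00173, 0.00359 and 0.00472, limma F test with BH). For Uqcrc1 the lithium differences in time order were -0.48, -0.15, -0.02 and 0.16, and for Cyc1 they were -0.17, 0.02, 0.16 and 0.29. The sign of the difference changed between 12 and 72 h in both. For Uqcrc1 the 12 h controls lay above every other CCD control library. Its early difference therefore cannot be told apart from the level of those controls. Without lithium libraries 16 to 19 of 72 h the count was 24 (chosen after the values were seen), and on set means it was 0. Among mitochondrial genes 1 had an unadjusted p under 0.05. Ndufv3 was the one nuclear gene called lower at all 4 times.

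**Figure D4:**
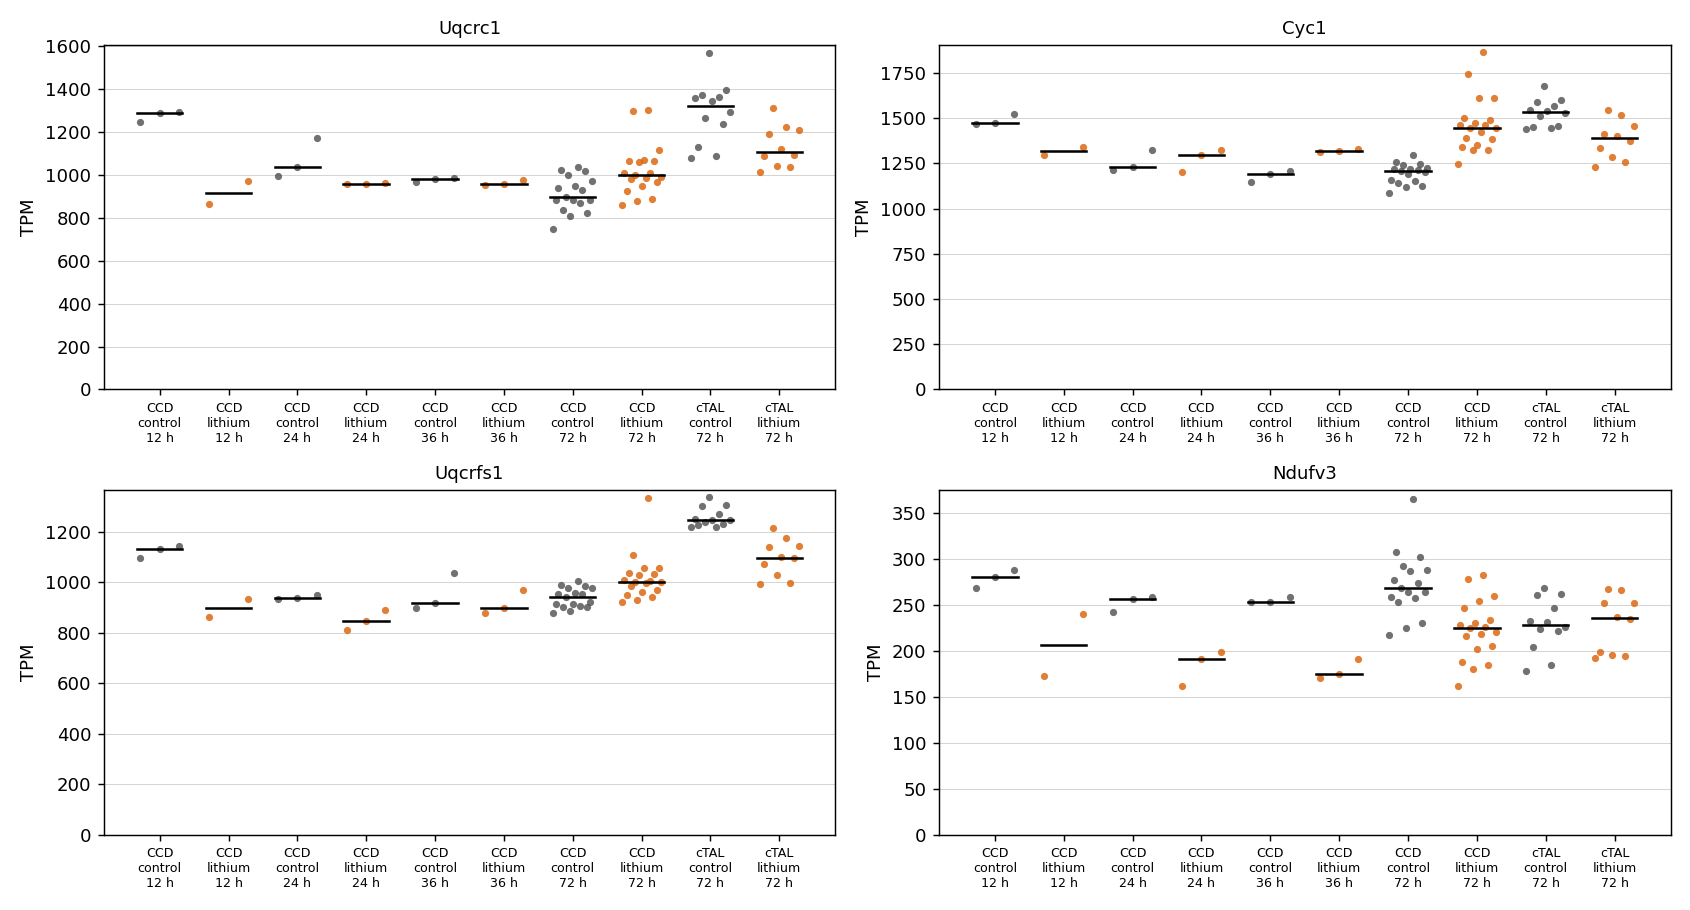
TPM of Uqcrc1, Cyc1, Uqcrfs1 and Ndufv3 in every library, controls in grey and lithium in orange, with a line at the group median and the axis from 0. Uqcrc1 and Uqcrfs1 are lower with lithium at 12 h and higher at 72 h in CCD, while Ndufv3 is lower with lithium at each CCD time and has medians of 229 and 236 TPM in cTAL.

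Cox6b2 changed most among the nuclear genes at 72 h. It encodes the testis form of the subunit 6b that bridges the 2 monomers of complex IV. In CCD at 72 h it was at 0 to 3.61 TPM with a median of 1.57 in the 17 controls and at 4.62 to 25.6 TPM with a median of 11.9 in the 19 lithium libraries (log2 difference 2.48, SE 0.226, adjusted p 7.57e-12, limma with BH). It was the only one of the 91 genes whose groups did not overlap at 72 h, beside 2.02% of all genes tested, also within the lithium sets, whose lowest values were 5.77, 14.5, 11.6 and 4.62 TPM. At 36 h it was at 1.83, 1.35 and 0.490 TPM in controls and 17.2, 12.2 and 11.3 with lithium (log2 difference 2.74, SE 0.358, adjusted p 2.07e-05, limma with BH). At 24 h it was at 0, 0.390 and 0.760 TPM and 0.50, 2.68 and 2.71 (log2 difference 1.02, SE 0.358, adjusted p 0.0494, limma with BH), with overlap, and the call was lost under either other scaling, without the filter on low values, in the joint fit, on set means and in 4 of 6 fits that left out 1 library. At 12 h it was at 0, 0.140 and 0.210 TPM and 0.680 and 2.20 and did not pass (adjusted p 0.110). The level stayed small beside Cox6b1: of the summed TPM of the Cox6b1 and Cox6b2 rows, Cox6b2 made a median of 0.140% in control and 0.801% in lithium CCD at 72 h, and 0.165% and 1.25% at 36 h. Because 1 was added to each TPM before the logarithm, these differences are smaller than the change in TPM of so low a gene.

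Ndufs5, a small subunit of complex I, was at 224, 211 and 169 TPM in the 3 lithium libraries at 36 h and at 0 to 7.91 TPM in the other 72 libraries. The log2 difference from the 36 h controls (3.16, 4.81 and 2.80 TPM) was 5.48 (SE 0.394, adjusted p 2.53e-08, limma with BH). At 72 h it did not pass (log2 difference 0.49, SE 0.211, adjusted p 0.0624, limma with BH). Those 3 libraries are 1 set, so the set and the treatment cannot be told apart. Whether the annotation of this row or a sequence difference between rats bears on it was not tested.

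**Figure D5:**
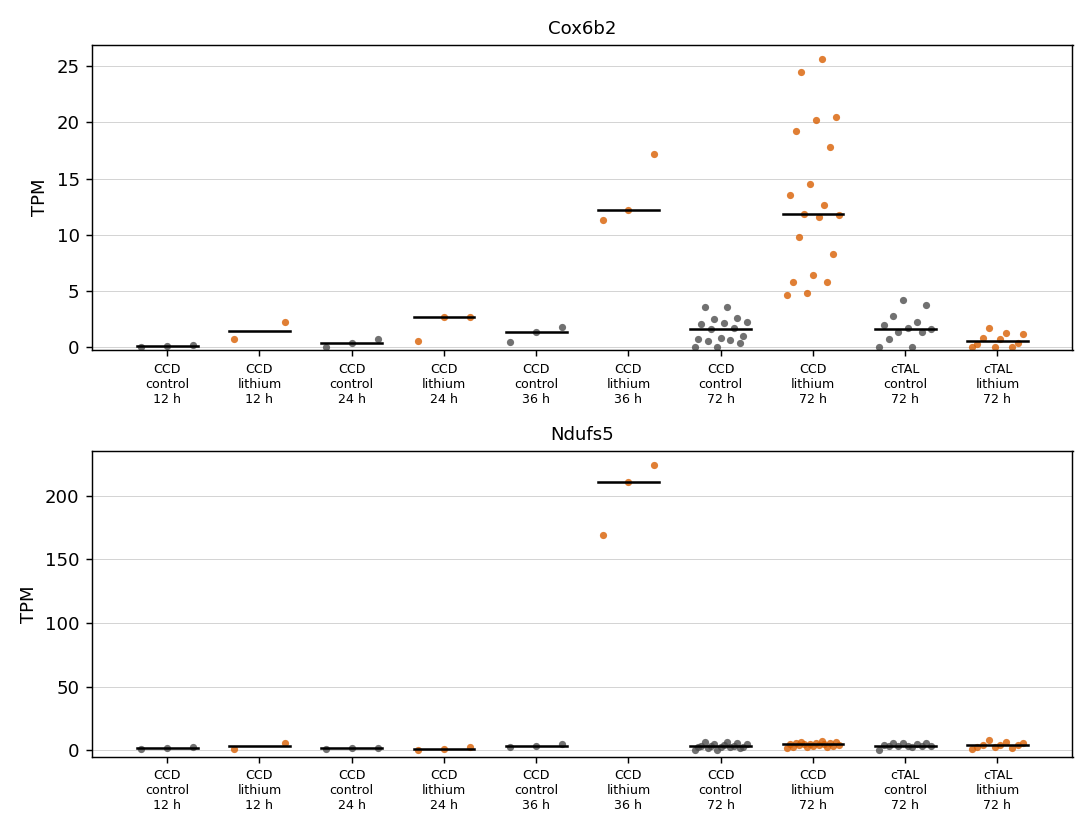
TPM of Cox6b2 (top) and Ndufs5 (bottom) in every library, controls in grey and lithium in orange, with a line at the group median. Cox6b2 is high in lithium CCD at 36 and 72 h and below 5 TPM in every other group, and Ndufs5 is high in the 36 h lithium group alone.

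In cTAL, lithium for 72 h left nearly all of these transcripts uncalled. Uqcrfs1 was the 1 gene called, and none of the 13 mitochondrial genes was, beside 0.701% of the 11702 genes tested. It was at 1219.7 to 1339 TPM with a median of 1246 in controls and 994 to 1216 TPM with a median of 1097 with lithium (log2 difference -0.20, SE 0.0457, adjusted p 0.0347, limma with BH), without overlap. It was the 1 gene of the 91 without overlap, beside 0.0171% of all genes tested. It was not called under 2 other scalings or on set means, and it was called in the joint fit. At an unadjusted p under 0.05 stood 7 nuclear and no mitochondrial genes: Uqcrfs1, Cyc1 (-0.15), Uqcrc1 (-0.19), Ndufv1 (-0.19), Sdhc (-0.10) and Cox6b2 (-0.71) on the lower side and Ndufc1 (0.33) on the higher. The medians were 0.02 for nuclear, 0.06 for mitochondrial and -0.08 for all genes. Not called either were Ndufs1 (-0.03), Sdha (-0.09), Sdhb (-0.02), Cox4i1 (-0.07), Cox5a (-0.03), Atp5a1 (-0.13) and Atp5b (-0.09). From lowest to highest, the mitochondrial log2 differences in cTAL were Mt-nd6 (-0.15), Mt-nd4 (-0.05), Mt-atp6 (-0.01), Mt-nd5 (0.01), Mt-atp8 (0.06), Mt-nd2 (0.06), Mt-nd1 (0.06), Mt-cyb (0.07), Mt-co2 (0.09), Mt-nd4l (0.10), Mt-co1 (0.12), Mt-cox3 (0.17) and Mt-nd3 (0.28), none of them called. Cox6b2 in cTAL was at 0 to 4.15 TPM with a median of 1.65 in controls and 0 to 1.66 TPM with a median of 0.555 with lithium.

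The difference between the lithium effects of the 2 segments was tested directly, as the effect in CCD minus that in cTAL. For 20 nuclear genes it was positive and for 1 negative, and for no mitochondrial gene was it called, beside 15.3% of the 13083 genes tested (11.8% positive, 3.44% negative). At an unadjusted p under 0.05 stood 6 mitochondrial genes, all negative in size. From lowest to highest, the mitochondrial log2 differences between the effects were Mt-nd4 (-0.51), Mt-nd4l (-0.39), Mt-co1 (-0.34), Mt-nd2 (-0.34), Mt-nd5 (-0.34), Mt-atp8 (-0.32), Mt-co2 (-0.32), Mt-cox3 (-0.29), Mt-atp6 (-0.26), Mt-cyb (-0.23), Mt-nd3 (-0.23), Mt-nd6 (-0.21) and Mt-nd1 (-0.20), none of them called. The medians were 0.17 for nuclear, -0.32 for mitochondrial and 0.08 for all genes. Cox6b2 had a difference of 3.18 (SE 0.366, adjusted p 3.8e-10, limma with BH), from 2.48 in CCD and -0.71 in cTAL. Cyc1 had 0.44 (SE 0.0620, adjusted p 1e-07, limma with BH), from 0.29 and -0.15. Next came Ndufa12 (0.59), Uqcrq (0.55) and Cox6b1 (ENSRNOG00000024309, 0.42), and on the negative side Ndufv3 (-0.29), with adjusted p of 0.0287 to 0.0485 (limma with BH). The Ndufv3 call was lost with a pseudocount of 0.1, without the filter on low values, under median-of-ratios scaling and on set means. Without lithium libraries 16 to 19 (chosen after the values were seen) the calls of Ndufv3, Ndufa12 and Uqcrq were lost. Under median-of-ratios scaling Cox6b2 and Cyc1 alone were positive and Sdha alone negative, and on set means Cox6b2 and Cyc1 alone were called. Of all genes tested, 15.0% were called under that scaling and 3.71% on set means.

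Between the segments in controls at 72 h, transcripts of the chain were lower in CCD than in cTAL. Of the nuclear genes 48 were lower and 4 higher in CCD, and all 13 mitochondrial genes were lower, beside 67.2% of the 13083 genes tested, 46.9% higher and 20.3% lower. The medians were -0.28 for nuclear, -0.62 for mitochondrial and 0.25 for all genes. Under median-of-ratios scaling, which took the median of all genes to 0.00, 66 nuclear genes were lower and none higher, with medians of -0.57 and -0.90. On set means 35 nuclear and 10 mitochondrial genes were lower and 2 nuclear genes higher. Of all genes, 59.4% were called under median-of-ratios scaling and 46.8% on set means. This comparison shares its CCD controls with the lithium comparison at 72 h.

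By complex, 20 nuclear genes of complex I were lower and 1 higher, 2 and 1 of complex II, 6 and 2 of complex III, 9 and 0 of complex IV, and 11 and 0 of complex V. Ndufb9, a membrane-arm subunit of complex I, was at 913 to 1273 TPM with a median of 1073 in CCD and 1861 to 2798 TPM with a median of 2205 in cTAL (log2 difference -1.06, SE 0.0729, adjusted p 4.17e-20, limma with BH), without overlap. The next largest were Ndufs8 (-0.90), Atp5g1 (-0.77), Ndufb8 (-0.71) and Ndufv1 (-0.70), and none of these groups overlapped. The groups did not overlap for 18 of the 91 genes, 16 of them nuclear. Beside this stand 13.7% of all genes tested (5.34% lower in CCD). Cyc1 (-0.36), Uqcrfs1 (-0.42), Uqcrc1 (-0.50) and Sdhb (-0.32) did not overlap either. Cox4i1 (-0.55), Cox5a (-0.34), Atp5a1 (-0.34) and Atp5b (-0.30) were lower with overlap. Sdha (-0.08) and Ndufs1 (-0.21) did not pass.

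The 4 nuclear genes higher in CCD were the 2 Uqcrb rows (0.56 for ENSRNOG00000032204 and 0.27 for ENSRNOG00000024967), Ndufv3 (0.26) and Sdhd (0.17). The last 3 turned to -0.02, -0.03 and -0.12 under median-of-ratios scaling. Mitochondrial differences ran from -0.69 (Mt-nd1) to -0.38 (Mt-atp8), with Mt-co2 and Mt-nd6 at -0.68, Mt-cyb -0.67, Mt-co1 -0.65, Mt-nd5 -0.64, Mt-nd2 -0.62, Mt-nd4 -0.61, Mt-nd4l -0.60, Mt-nd3 -0.59, Mt-atp6 -0.56 and Mt-cox3 -0.54. Mt-cyb was at 5363 to 8803 TPM with a median of 7164 in CCD and 10085 to 12742 TPM with a median of 11227 in cTAL (log2 difference -0.67, SE 0.0726, adjusted p 2.63e-12, limma with BH), and Mt-cyb and Mt-nd1 were the 2 mitochondrial genes without overlap. Immune markers (15 of 15 listed) summed to 2157 to 6566 TPM in control cTAL and 24.6 to 634 TPM in control CCD, and the 15 proximal tubule markers to 751 to 1547 and 73.3 to 699.7 TPM, with none near 0 in all libraries of a group. Endothelial, fibroblast and distal tubule sums overlapped between the segments. The part of these cells in the differences was not tested.

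Genes that build and serve the chain were read from lists beside it. Their counts stand beside 37.3% of all genes called in CCD at 72 h, 32.2% at 36 h, 23.6% at 24 h and 10.4% at 12 h. In cTAL 0.701% of all genes were called. The lists were read in the main fits alone, not under other scalings or on set means. At 72 h the chain's own count went from 60 to 27 under median of ratios and to 12 on set means. Before 72 h each group is 1 set. The mitochondrial ribosome translates the 13 mitochondrial genes: in CCD at 72 h, 51 of its 73 tested genes rose and 1 fell (median 0.24), 28 of 74 rose and 5 fell by 36 h (0.15), 11 and 3 by 24 h (0.04), and 10 and 2 by 12 h (0.09). None was called in cTAL (median 0.05). Mrpl14 rose from 148 ± 21.0 to 235 ± 36.2 TPM (SD, n = 17 and 19; log2 difference 0.66, SE 0.0704, adjusted p 4.55e-10, limma with BH), and Mrpl38 rose by 0.49.

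Of 14 assembly factors of complex I, 7 rose and 1 fell in CCD at 72 h, led by Ndufaf5 (log2 difference 0.49, SE 0.0619, adjusted p 2.16e-08, limma with BH) and Ndufaf6 (0.53). Of 31 tested factors for complexes II to V, 9 rose and 1 fell (median 0.08), a smaller share than of all genes. Among them was Bcs1l, which inserts the Rieske protein into complex III, up by 0.59 and Uqcc2, needed to make cytochrome b, by 0.43. At 36 h Bcs1l rose from 14.0 ± 0.861 to 31.4 ± 1.27 TPM (SD, n = 3 and 3; log2 difference 1.12, SE 0.0869, adjusted p 6.08e-08, limma with BH), and 3 complex I and 7 other factors rose with 1 and 0 falling. At 24 h 3 complex I factors rose and 2 fell, with 2 and 1 of the others, and at 12 h 1 of each list was called, Ndufaf1 lower (-0.84) and Uqcc3 higher (0.53). In cTAL none was called.

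Of 26 genes that copy, transcribe and process mitochondrial DNA and RNA, 4 rose and 4 fell in CCD at 72 h, a smaller share than of all genes and with a median of 0.05, and 12 rose and 1 fell at 36 h, where it was 0.32. Tfam, which packages mitochondrial DNA and starts its transcription, was higher at 24 h (0.22), 36 h (0.42) and 72 h (0.17). At 36 h Tfam rose from 81.7 ± 4.87 to 109 ± 4.59 TPM (SD, n = 3 and 3; log2 difference 0.42, SE 0.0735, adjusted p 0.000375, limma with BH). Slirp, which stabilises mitochondrial messengers, rose by 0.70 at 72 h, and Mterf3 by 0.80 at 36 h. At 24 h 1 rose, and at 12 h 2 rose and 1 fell (Top1mt 0.70, Lrpprc -0.51).

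Of 13 tested regulators of mitochondrial biogenesis 6 rose and none fell at 36 h (median 0.30), and the counts were 3 and 2 for 72 h, 3 and 1 for 24 h, and 2 and 1 for 12 h. Pprc1, a relative of the coactivator PGC-1alpha, rose at 36 h from 6.20 ± 1.29 to 18.4 ± 2.20 TPM (SD, n = 3 and 3; log2 difference 1.44, SE 0.191, adjusted p 2.5e-05, limma with BH), and Nrf1 rose by 0.71. Ppargc1a, the gene of PGC-1alpha, was not called in CCD, with log2 differences of 0.31, -0.06, 0.15 and -0.13 from 12 to 72 h. Esrrg, a nuclear receptor of oxidative genes, fell at 12 h (-0.48) and 72 h (-0.64), and Sirt3, the main mitochondrial deacetylase, rose by 0.28 at 72 h. In control CCD, 6 of 15 regulators were lower than in cTAL and 3 higher. Over all genes tested 67.2% were called in that comparison, 20.3% lower and 46.9% higher. Among the lower regulators were Esrrb, at means of 0.0053 TPM in CCD and 10.8 TPM in cTAL, and Sirt3 (-0.79).

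Among 22 tested carriers, import and inner membrane genes, 9 rose and 1 fell in CCD at 72 h, and at 12 h 1 of 23 rose and 9 fell. Ucp2, an inner membrane carrier, rose at 72 h from 285 ± 41.1 to 454 ± 43.4 TPM (SD, n = 17 and 19; log2 difference 0.67, SE 0.0576, adjusted p 1.3e-12, limma with BH) and at 24 h by 0.59. The adenine nucleotide carrier Slc25a5 (-0.42) and the cristae organiser Immt (-0.54) fell at 12 h. At 36 h 9 rose and 1 fell (Hspd1 0.79, Fis1 -0.54), and at 24 h 1 rose and 4 fell. Slc25a4, the other nucleotide carrier, was the 1 gene of these lists called in cTAL (log2 difference -0.24, SE 0.0474, adjusted p 0.0158, limma with BH).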

How the data were processed

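Libraries were made from microdissected tubules of polyA RNA by SMARTer V4 cDNA synthesis with 15 PCR cycles and Nextera XT from 1 ng, per the labels' protocols. The authors deposited TPM values for 32754 genes, made with STAR 2.5.2b and RSEM 1.2.31 on Rnor_6.0, per the submitters' processing notes. Counts were not used here and the depth is unknown, so no counting interval is given. Each library's TPM sum to a constant, so a rise in some genes lowers the share of others.

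From these values, limma 3.58.1 (R 4.3.3) took log2(TPM + 1), modelled the trend of variance with level, and tested genes with at least 1 TPM in as many libraries as the smallest group of the fit held, with two-sided p-values adjusted by Benjamini-Hochberg over all genes tested. Comparisons at 72 h within a segment used their own 2 groups, those at 12, 24 and 36 h all 6 CCD groups before 72 h together, those between segments the 4 groups at 72 h, and those over time the 8 CCD groups. The fits were tested on simulated data in which libraries vary independently, so that test does not cover libraries of 1 set that vary together. Alternatives were a pseudocount of 0.1, no filter, a mean TPM of at least 5, scaling by genes that are not mitochondrial, median-of-ratios scaling, a joint fit of 10 groups, means of library sets, a replicate block and each early library left out. The genes, lists and rules were chosen with earlier results of these data known. Named were every mitochondrial gene in the comparisons described, up to 5 called nuclear genes of largest rise and 5 of largest fall, 5 of smallest p in each test over time, fixed core subunits, paired isoforms, and up to 2 genes of smallest p in each other list. Other genes are named where a count is spelled out, and 1 gene that the rule would name is not reported here.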

Additional observations from a re-analysis of the deposited data

Results flagged for a closer look

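The lithium effect differed between the segments at 72 h by limma's test of the difference itself for 21 nuclear genes, beside 15.3% of all genes tested. Under median-of-ratios scaling 3 genes of the chain were called, beside 15.0% of all genes tested, and on set means 2, beside 3.71%. In the largest, the CCD effect minus the cTAL effect was 3.18 for Cox6b2, 0.59 for Ndufa12, 0.55 for Uqcrq, 0.44 for Cyc1 and 0.42 for Cox6b1 (ENSRNOG00000024309), and -0.29 for Ndufv3, in log2.

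The lithium effect differed over the 4 times in CCD for Ndufs5 (adjusted p 2.21e-08), Uqcrfs1 (0.00169), Uqcrc1 (0.00173), Cyc1 (0.00359) and Atp5g3 (0.00472), by limma's moderated F test. For Atp5g3 the differences from 12 to 72 h were -0.29, -0.21, -0.05 and 0.23, and for Uqcrfs1 they were -0.33, -0.15, -0.05 and 0.11.

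One lithium cTAL library lay apart from the other 9 of its group, with a ratio of nuclear to mitochondrial TPM of 0.833 against a group median of 0.677. It was the 1 such value among 37 looked at, and chance flags about 1 in 20 groups.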

How the results depend on the processing

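Of 131 alternative counts of called genes, 102 lay within 1.5 times the count as reported. Many of the 131 only leave out 1 early library, and most of those stayed within 1.5 times. Under median-of-ratios scaling and on set means, most counts lay outside. Under median-of-ratios scaling 27 genes were called in CCD at 72 h (60 as reported), 22 at 36 h (10), 0 in cTAL (1), 3 between the segments' effects (21), 7 in controls over time (23) and 5 for the lithium effect over time (11). Of all genes, in the same order, that scaling called 40.6, 31.9, 0.652, 15.0, 15.3 and 8.57%. In the segment comparison that scaling turned Uqcrb (ENSRNOG00000024967) to -0.0168, Ndufv3 to -0.0287 and Sdhd to -0.119. Means of library sets gave 12 for 72 h, 1 for 36 h, 0 for 24 h (18), 0 for 12 h (13), 0 in cTAL, 2 between effects, and 0 and 0 over time, with few sets per group. Of all genes, in the same order, set means called 12.5, 4.62, 2.0, 0.0213, 0.00764, 3.71, 0.113 and 0.121%. The joint fit of 10 groups gave 3 (36 h), 4 (24 h), 4 (12 h) and 3 (cTAL). Scaling by genes that are not mitochondrial gave 0 in cTAL and 12 between effects, and no filter gave 13 between effects. Without lithium libraries 16 to 19 (chosen after the values were seen) the lithium effect over time gave 24. Leaving out 1 library at a time gave 7 to 15 (12 h), 13 to 17 (24 h), 6 to 14 (36 h), 16 to 25 in controls over time and 6 to 12 for the lithium effect over time, with the lowest of the last without lithium library 2 of 12 h. Replicate numbers were not taken as pairs, since in no comparison did every same-numbered pair correlate above 0.1. Between control and lithium at 72 h, 6 of 17 pairs in CCD and 4 of 10 in cTAL did. Whether equal numbers mark 1 rat is not labelled. With the replicate block 0 were called in cTAL and 38 in controls over time, and the other counts stayed within 1.5 times. Of the calls named in the text, the block lost Mt-co2 at 72 h, Cyc1 and Sdhc at 36 h, Cox6b2, Ndufa10 and Sdha at 24 h, Uqcrfs1 in cTAL, and between effects Ndufa12, Uqcrq, Cox6b1 (ENSRNOG00000024309) and Ndufv3, and it added Mt-nd6 at 72 h and Ndufs1 between segments. Under median-of-ratios scaling the nuclear and mitochondrial medians were -0.15 and -0.45 (36 h), -0.20 and -0.80 (24 h), and -0.57 and -0.90 (segments), and for segments scaling by genes that are not mitochondrial gave a nuclear -0.37. Of 122 named calls, 86 were kept under median of ratios and 39 on set means. The cause of these changes was not tested.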

Other observations

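Cytosolic ribosomal protein genes with a mean of at least 50 TPM, a list chosen after the values were seen, were mostly higher with lithium in CCD at 36 and 72 h. Of 62 genes 60 rose by 72 h (median 0.48), 39 by 36 h, 10 by 24 h and 13 by 12 h, and none fell at any of these times or was called in cTAL. Over all genes tested, 22.0, 23.7, 18.3 and 7.10% were called higher at those times, so the share at 24 h was not above that of all genes. In cTAL 0.701% of all genes were called. This list too was read in the main fits alone, not under other scalings or on set means. Rps2, of the small subunit, rose at 72 h from 325 ± 48.1 to 673 ± 121 TPM (SD, n = 17 and 19; log2 difference 1.04, SE 0.0746, adjusted p 9.87e-15, limma with BH).

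Mt-nd4 in cTAL differed between library sets within each group. It was at 103 to 137 TPM in control libraries 9 to 12 and 252 to 391 in the other 8, and at 95.8 to 140.3 TPM in lithium libraries 8 to 10 and 227 to 338 in the other 7. Within each group those sets did not overlap the rest.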
